A study of Mus musculus with 16 samples.

Results

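The cytosolic ribosomal protein genes were taken from the deposited table by symbol: names that begin with Rpl or Rps and a digit, together with Rpsa, Rplp0, Rplp1 and Rplp2, without the Rps6k kinases (7 symbols) and symbols that mark a pseudogene (5 symbols). The rule found 85 of 13100 genes, 51 of the large subunit, 33 of the small subunit and Rps19bp1, which encodes a protein that binds the ribosomal protein Rps19 and is itself no ribosomal protein. Of these, 73 are autosomal genes for standard ribosomal proteins, 4 lie on the X chromosome (Rpl10, Rpl36a, Rpl39 and Rps4x) and 7 are paralogs (Rpl7l1, Rpl10l, Rpl22l1, Rpl36al, Rpl39l, Rps4l and Rps27l). All 85 passed the filter on low values, and none was listed at 0 in any library.

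Transcripts had been measured by polyA-enriched bulk RNA-seq in spermatogenic cells sorted from testes of 8-week-old male C57BL/6J mice. The Tex10-deficient mice (Tex10f/-; Stra8iCre) had 1 floxed and 1 deleted copy of Tex10 and the Stra8-iCre transgene, whose promoter is active in spermatogonia, and the labels name no allele or transgene for the WT mice. Each genotype gave 2 libraries of spermatogonia, MI spermatocytes, MII spermatocytes and spermatids, 16 libraries in 8 groups, and the series asked which transcripts change without Tex10. Tex10 belongs to a nuclear complex that takes part in maturation of the large ribosomal subunit. How the cells were sorted, and whether the pair of libraries in a group stands for different mice, the labels leave unsaid. The p-values here therefore rest on library-to-library spread that could be technical alone.

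A ribosome holds a single copy of nearly every ribosomal protein, the acidic stalk proteins Rplp1 and Rplp2 being the exception, and the cell therefore makes these proteins in balanced amounts. Their mRNAs are short and abundant and share a terminal oligopyrimidine tract at the 5′ end, which lets growth signals switch their translation as a group. In the testis the X chromosome is silenced during meiotic prophase, and several X-linked ribosomal protein genes have autosomal copies that arose by retroposition. Rpl10l is the best studied of these in mice, where it is needed for spermatocytes to pass through meiosis, and Rpl39l is a further copy made mainly in male germ cells.

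Groups were taken from titles. The titles and the cell type field disagree for 6 of the 8 libraries of Tex10-deficient cells. By whole-transcriptome correlation the nearest WT library shared the title's cell type for 8 of 8, but the field's cell type for 2 of 8 only. Tex10 was lower in every Tex10-deficient library than in both WT libraries of its cell type, with 7.29 to 34.8 FPKM in Tex10-deficient and 13.8 to 116 FPKM in WT libraries. The libraries labelled MII stood apart: summed over 7 Leydig cell markers they held 899 to 1459 FPKM, where the other 12 libraries held 14.9 to 222 FPKM, and summed over 8 immediate early genes 3863 to 6676 FPKM. Macrophage markers (8 genes) summed to 183 to 498 FPKM in spermatogonia and 209.8 to 537 FPKM in MII libraries, but to at most 6.43 FPKM in MI and 26.0 FPKM in spermatid libraries. Late spermatocyte markers (6 genes) summed to only 122 to 802 FPKM in the MII libraries, against 2003 to 3773 FPKM in MI and 5429 to 6085 FPKM in spermatid libraries. The 5 meiotic prophase markers summed to 10.8 to 86.4 FPKM in MII libraries. They summed to 157 to 325 FPKM in spermatogonia, 381 to 740 FPKM in MI and 150 to 176 FPKM in spermatid libraries. Sertoli cell markers (3 genes measured) summed to 81.0 to 115 FPKM in MII and 4.75 to 61.7 FPKM in the other 12 libraries. FPKM totals ran from 187713 to 533859 and are no depth, and read numbers are unknown.

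Ribosomal protein transcripts were most abundant in the libraries labelled spermatogonia and MII spermatocytes and scarcest in those labelled MI spermatocytes and spermatids. Cell types are named by these labels throughout. The MII libraries also held Leydig cell, macrophage and immediate early transcripts, as given above. Levels in them may therefore not be those of MII spermatocytes alone. FPKM is a fragment number scaled to transcript length and to the mapped fragments of the library. Levels of different genes are set beside each other only as a description, since the assignment of reads that fit several places is unknown. The median of the 85 genes was 74.6 and 55.8 FPKM in Tex10-deficient and 77.2 and 58.3 FPKM in WT spermatogonia, and 46.1 and 28.3 FPKM in Tex10-deficient and 39.2 and 31.3 FPKM in WT MI spermatocytes. It was 142 and 69.0 FPKM in Tex10-deficient and 78.9 and 52.4 FPKM in WT MII spermatocytes, and 45.9 and 38 FPKM in Tex10-deficient and 40.5 and 37.0 FPKM in WT spermatids. Of these 16 libraries, the first Tex10-deficient MII library stood highest, and in no cell type did all Tex10-deficient libraries lie on 1 side of all WT libraries. The 85 genes together made up 4.42 and 3.33% of the FPKM total in Tex10-deficient and 4.73 and 3.82% in WT spermatogonia. Their share was 2.16 and 1.42% in Tex10-deficient and 1.89 and 1.29% in WT MI spermatocytes, 6.86 and 3.59% in Tex10-deficient and 3.87 and 2.74% in WT MII spermatocytes, and 1.34 and 1.08% in Tex10-deficient and 1.22 and 0.966% in WT spermatids. In bulk samples, fewer cells that make a transcript and less of it per cell cannot be told apart.

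**Figure D1:**
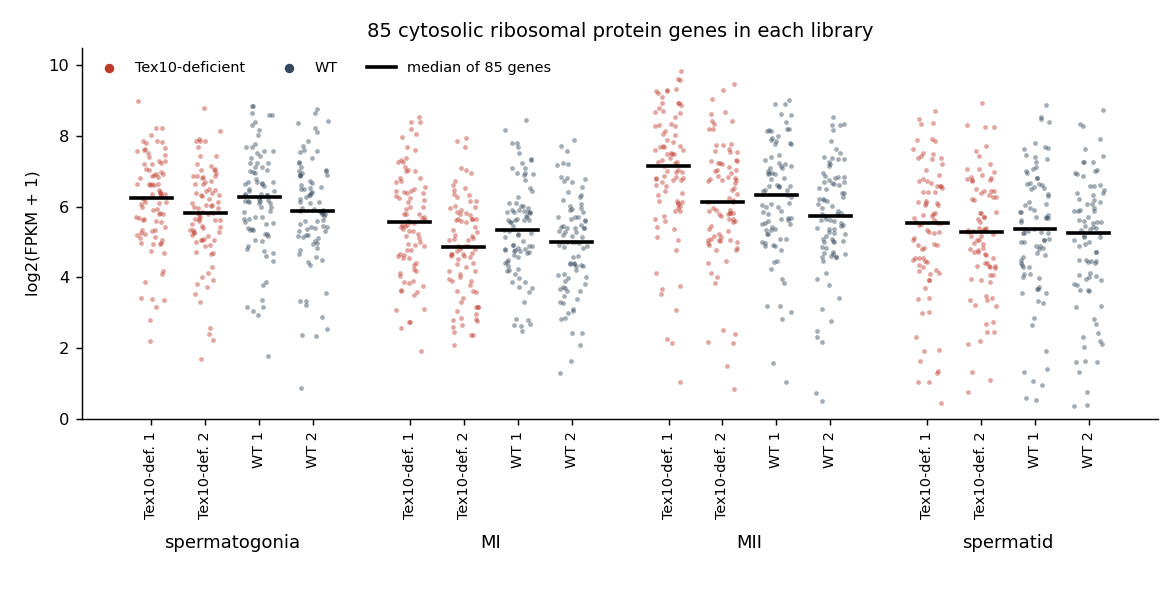
Each point is 1 of the 85 ribosomal protein genes in 1 library, as log2(FPKM + 1), with Tex10-deficient libraries (1 and 2) left of WT libraries (1 and 2) in each cell type and a bar at the median. Medians are lowest in MI spermatocytes and spermatids (28.3 to 46.1 FPKM), and the highest is that of the first Tex10-deficient MII library (142 FPKM).

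The genes differed far more from each other than a library did from the next. In Tex10-deficient spermatogonia the mean level over both libraries ran between 2.93 FPKM for Rpl39l and 477 FPKM for Rpl4, and in WT spermatogonia between 3.59 and 446 FPKM for the same genes. Over all libraries the 5 highest means were those of Rps25 (387 FPKM), Rpl4 (366 FPKM), Rpl11 (296 FPKM), Rps24 (281 FPKM) and Rps15 (268 FPKM). Rpl11 is known for binding Mdm2 when ribosome assembly fails, and Rpl4 reaches into the exit tunnel. The 5 lowest means were those of Rps19bp1 (3.5 FPKM), the paralogs Rpl7l1 (5.14 FPKM), Rps4l (8.04 FPKM) and Rpl22l1 (9.09 FPKM), and Rpl27a (9.10 FPKM), a large-subunit protein. The order of the genes was alike in both genotypes: Spearman's rho of the mean levels over the 85 genes was 0.903 in spermatogonia, 0.951 in MI spermatocytes, 0.977 in MII spermatocytes and 0.985 in spermatids, given across genes as a description. The summed FPKM of the large-subunit genes was 1.33 to 1.66 times that of the small-subunit genes in every library. In the other cell types than spermatogonia the ranges of the genotypes overlapped. In spermatogonia this ratio was 1.64 and 1.62 in Tex10-deficient and 1.36 and 1.35 in WT libraries, which do not overlap. The small-subunit sums there were 3143 and 2548 FPKM in Tex10-deficient and 3935 and 3238 FPKM in WT libraries. Abundant Rps25 had means of 125.2 and 356.8 FPKM, and Rps3a1 of 255.6 and 433.5 FPKM, in Tex10-deficient and WT spermatogonia. Neither was called. Of the 30 autosomal small-subunit genes 40% had an estimate above 0. The ratio was not tested.

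No ribosomal protein gene passed the test for a difference between Tex10-deficient and WT cells in any of the 4 cell types, nor in the average over cell types, in the fit without a replicate block. The call needed a Benjamini-Hochberg adjusted p under 0.05 over 13099 genes, from 1 limma fit of all 8 groups on log2(FPKM + 1). That scale understates changes of low genes. Over all genes the calls were as scarce: 0.0153% in spermatogonia, 0.168% in MI spermatocytes, 0.00763% in MII spermatocytes, 0.0% in spermatids and 0.0992% for the average. At an unadjusted p under 0.05, 9 of the 85 were found in spermatogonia, where 6.6% of all genes were, 1 in MI spermatocytes (5.84%), 17 in MII spermatocytes (13.3%), 1 in spermatids (2.17%) and 10 for the average (11%). The 17 of MII spermatocytes are 20% of the 85 and the 9 of spermatogonia 10.6%. The F test of whether the genotype difference varies between cell types called none of the 85 and 0.0% of all genes, with 8 of the 85 (9.41%) and 6.49% of all genes at an unadjusted p under 0.05. Leaving out the first WT MII library leaves 1 WT MII library, assumed to vary like the other groups, and gave 6 called members in MII spermatocytes (Rpl3, Rpl6, Rpl7a, Rpl29 and Rps25 higher and Rpl10l lower), 3 for the average (Rpl3, Rpl12 and Rpl29, all higher) and 2 in the F test (Rpl10l and Rps25), where 9.57%, 3.92% and 1.98% of all genes were called. With the replicate number as a block within genotype 4 members were called in MII spermatocytes, all higher in Tex10-deficient cells (Rpl3, Rpl13a, Rpl29 and Rpl34, adjusted p of 0.044, 0.039, 0.036 and 0.036), where 2.43% of all genes were called. For the average the block gave 2 members, both higher (Rpl29 and Rpl34, adjusted p of 0.0014 and 0.031), where 0.374% of all genes were called. Rpl29 was low only in the 4 WT libraries numbered 2 and not in those numbered 1, as given under other observations. Grouping by the cell type field in place of the titles gave 20 calls in MI spermatocytes (18 higher and 2 lower in Tex10-deficient cells). It gave 16 in MII spermatocytes (3 higher and 13 lower) and 23 in the F test. The share of all genes called under this grouping is not given here, so these counts are no result about the 85.

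In MII spermatocytes the estimates leaned to one side. The difference Tex10-deficient minus WT lay above 0 for 80 of 85 genes, with a median of 0.62 on the log2 scale where the median of all 13099 genes was −0.02. Its size depended on the scaling. Relative to the median of all genes, the median of the 85 was 0.633 on deposited FPKM and 0.625 with equal totals, but 0.326 after quantile normalization. In 33 genes both Tex10-deficient MII libraries were above both WT MII libraries, and in 1 gene, Rpl10l, both were below (17.3% and 18% of all genes). The 5 genes at or below 0 were Rpl10l (−1.70), Rpl39l (−0.73), Rplp0 (−0.13), Rpl7l1 (−0.05) and Rps4l (−0.04), 4 of them paralogs. The first Tex10-deficient MII library had a median of 142 FPKM over the 85 genes and the second 69.0 FPKM, while the WT MII libraries had 78.9 and 52.4 FPKM, so the lower Tex10-deficient library lay between the WT libraries. In the same libraries the Leydig cell markers summed to 1459 and 1255 FPKM in Tex10-deficient and 1391 and 899 FPKM in WT, late spermatocyte markers to 122 and 229 FPKM in Tex10-deficient and 290.2 and 802 FPKM in WT, and macrophage markers to 209.8 and 288 FPKM in Tex10-deficient and 293 and 537 FPKM in WT. Their part in the difference was not tested. In the other cell types the medians over the 85 genes were −0.03 in spermatogonia, 0.02 in MI spermatocytes and 0.10 in spermatids, against −0.01, −0.0028 and −0.02 over all genes. Genes with both Tex10-deficient libraries above both WT libraries numbered 17 in spermatogonia, 9 in MI spermatocytes and 12 in spermatids, where 16.9%, 15.7% and 11.7% of all genes did, and those with both below numbered 25, 12 and 6 (19.6%, 18.4% and 15.9% of all genes).

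The members with the smallest p in MII spermatocytes were 2 large-subunit genes and the germ cell paralog Rpl10l. Rpl3, whose protein lies close to the peptidyl transferase centre, had 312 and 326 FPKM in Tex10-deficient and 176 and 117 FPKM in WT MII libraries. Its estimate was 1.15 (SE 0.27, limma adjusted p = 0.083), and the groups do not overlap. Rpl13a, in humans also part of a complex that represses translation after interferon treatment, had 106 and 91.4 FPKM in Tex10-deficient and 41.8 and 42.7 FPKM in WT MII libraries (estimate 1.21, SE 0.30, adjusted p = 0.095), and these do not overlap either. Rpl10l had 3.73 and 4.25 FPKM in Tex10-deficient and 8.17 and 27.5 FPKM in WT MII libraries (estimate −1.7, SE 0.46, adjusted p = 0.11), so the second WT library was alone in standing well above the rest. That library also held the largest sum of late spermatocyte markers of the 4, 802 FPKM against 122 to 290 FPKM in the others, and the part of this in the Rpl10l level was not tested. Without the first WT MII library Rpl3 had an estimate of 1.44 (adjusted p = 0.0054) and Rpl10l of −2.52 (adjusted p = 0.0022), with the spread of the lone WT library taken from the other groups. With the replicate block Rpl3 (adjusted p = 0.044) and Rpl13a (adjusted p = 0.039) passed.

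In spermatogonia the gene with the smallest p was Rps25, a small-subunit protein that several viral mRNAs need to start translation. It had 126 and 124 FPKM in Tex10-deficient and 383 and 330.1 FPKM in WT spermatogonia, and both Tex10-deficient libraries lay far below both WT libraries (estimate −1.5, SE 0.33, limma adjusted p = 0.15). In the other cell types Rps25 had 204 and 246 FPKM in Tex10-deficient and 353 and 208 FPKM in WT MI spermatocytes, 924 and 705 FPKM in Tex10-deficient and 477 and 316 FPKM in WT MII spermatocytes, and 418 and 485 FPKM in Tex10-deficient and 467 and 429 FPKM in WT spermatids. It lay lower in Tex10-deficient spermatogonia and higher in Tex10-deficient MII spermatocytes, and it also had the smallest p of the 85 in the F test of that difference (F = 10.4, adjusted p = 0.4), which it did not pass with all libraries. Without the first WT MII library it passed (F = 13.3, adjusted p = 0.032).

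Rpl12, at the base of the stalk that recruits translation factors, had 225 and 233 FPKM in Tex10-deficient and 124 and 104 FPKM in WT spermatogonia (estimate 1.0, SE 0.27, adjusted p = 0.33). It had 178 and 158 FPKM in Tex10-deficient and 95.5 and 92.3 FPKM in WT MII spermatocytes, while the genotypes overlapped in MI spermatocytes and differed by 0.06 on the log2 scale in spermatids. Both Tex10-deficient libraries lay above both WT libraries in spermatogonia and MII spermatocytes. Rpl12 gave the smallest p of the average over cell types (0.54, SE 0.14, adjusted p = 0.15), before Rpl13a (0.58, adjusted p = 0.16) and Rpl3 (0.5, adjusted p = 0.17). Without the first WT MII library Rpl12 and Rpl3 passed for the average (0.55 with adjusted p = 0.047, and 0.57 with adjusted p = 0.024). Rpl31, at the rim of the exit tunnel, had 58.9 and 44.8 FPKM in Tex10-deficient and 139 and 89.0 FPKM in WT spermatogonia, lower in both Tex10-deficient libraries (estimate −1.1, adjusted p = 0.47).

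In MI spermatocytes the smallest p belonged to Rpl13a, with 38.9 and 28.3 FPKM in Tex10-deficient and 25.2 and 15.7 FPKM in WT libraries (estimate 0.71, adjusted p = 0.8). Rps27a, which is made as a fusion with ubiquitin, had 16.5 and 17.0 FPKM in Tex10-deficient and 25.9 and 27.9 FPKM in WT MI libraries (estimate −0.65, adjusted p = 0.9). Rps26, at the mRNA exit channel of the small subunit, had 43.1 and 35.4 FPKM in Tex10-deficient and 29.1 and 19.6 FPKM in WT MI libraries (estimate 0.69, adjusted p = 0.91). In spermatids Rpl10a, the protein of the L1 stalk, was low throughout, with 2.82 and 4.44 FPKM in Tex10-deficient and 0.919 and 0.312 FPKM in WT libraries (estimate 1.52, SE 0.44, adjusted p = 1). Rps21 had 29.3 and 15.8 FPKM in Tex10-deficient and 37.1 and 34.1 FPKM in WT spermatids (estimate −0.7, adjusted p = 1), and Rpl36a is given with the X-linked genes. In these 5 comparisons the groups did not overlap, and none passed the test. The genes were picked by smallest p, which favours groups that do not overlap. Over all genes 15.7% lay higher and 18.4% lower without overlap in Tex10-deficient MI spermatocytes, and 11.7% and 15.9% in spermatids.

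**Figure D2:**
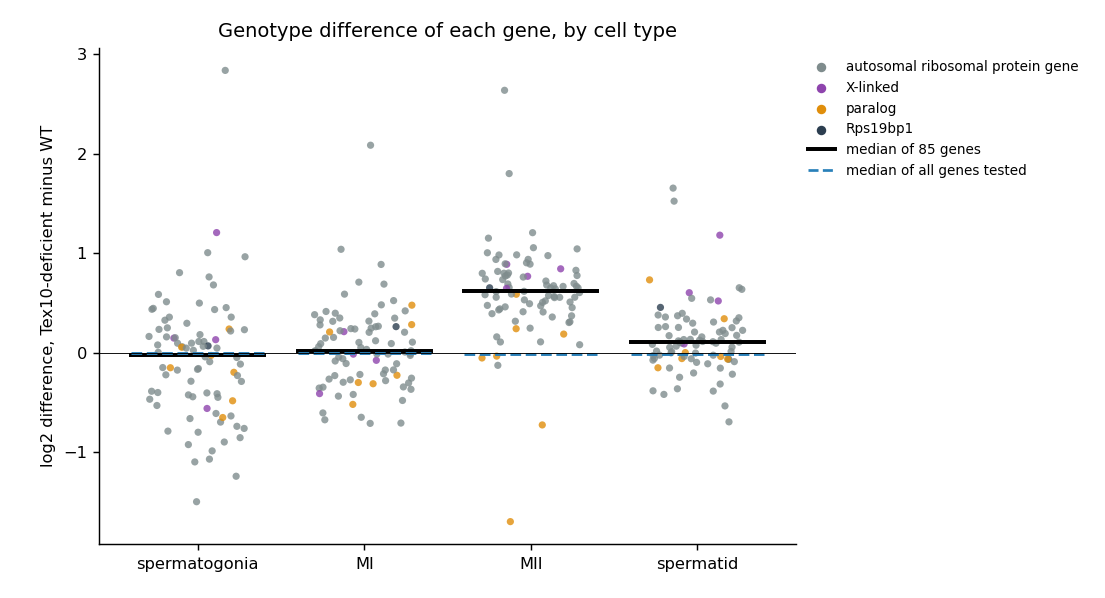
Each point is the log2 difference of 1 of the 85 genes, Tex10-deficient minus WT on log2(FPKM + 1), by cell type, with colours for X-linked genes, paralogs and Rps19bp1, a black bar at the median of the 85 and a dashed bar at the median of all 13099 genes. The black bar lies at 0.62 in MII spermatocytes and between −0.03 and 0.10 in the other cell types, and the highest point of each cell type is Rpl29 (1.65 to 2.84).

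Between cell types many ribosomal protein genes changed in the same direction. In MI spermatocytes against spermatogonia, 38 of 85 fell and 4 rose in Tex10-deficient cells, and 38 fell and 2 rose in WT cells. Over all genes 24.7% fell and 26.5% rose in Tex10-deficient cells, and 25.7% fell and 26.3% rose in WT cells, while the 38 are 44.7% of the 85. The median difference was −0.84 in Tex10-deficient and −0.94 in WT cells, against −0.06 and −0.07 over all genes. Of the genes that fell, 30 were the same in both genotypes, which share no library in these contrasts, and these are 78.95% of each list. Macrophage markers (8 genes) summed to at most 6.43 FPKM in MI libraries and to 183 to 498 FPKM in spermatogonia, and T lymphocyte markers (3 genes measured) to 1.18 to 1.2 FPKM in Tex10-deficient and 0.179 to 0.224 FPKM in WT MI libraries, where spermatogonia held 56.2 to 63.8 FPKM in Tex10-deficient and 16.1 to 51.4 FPKM in WT libraries. In both WT MI libraries Cd3g and Cd2 were listed at 0. Their part in the fall was not tested. The counts leaned on single libraries: 19 genes were called in Tex10-deficient cells without the second MI library and 17 without the first library of spermatogonia, and 15 in WT cells without the second MI library and 19 without the first library of spermatogonia.

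In MII against MI spermatocytes, 59 of 85 genes rose and 2 fell in Tex10-deficient cells (median 1.36), and 35 rose and 3 fell in WT cells (median 0.76). Over all genes 31.6% rose and 30.1% fell in Tex10-deficient cells, and 30% rose and 27.2% fell in WT cells. All 35 genes that rose in WT cells were among the 59 of Tex10-deficient cells, or 59.32% of the longer list. The 2 that fell in both were Rpl10l and Rpl39l, and Rps19bp1 fell in WT cells as well. Without the first MII library of Tex10-deficient cells 40 genes were called there, and in WT cells 13 were called without the second MI library and 14 without the first MII library. The MII libraries differ from the MI libraries in Leydig cell, macrophage and immediate early transcripts too, as given above, and the part of those in the rise was not tested.

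Spermatids held less of these transcripts than MII spermatocytes, with 48 genes lower and 2 higher in Tex10-deficient cells (median −1.10) and 37 lower and 5 higher in WT cells (median −0.79). Over all genes 36.9% were lower and 38.9% higher in Tex10-deficient cells, and 35% lower and 38.8% higher in WT cells. All 37 that fell in WT cells also fell in Tex10-deficient cells, 77.08% of the 48. In WT cells 25 calls were found without the first MII library and 26 without the second spermatid library. Against MI spermatocytes, in contrast, few changed: 6 rose and 8 fell in Tex10-deficient spermatids, and 3 rose and 8 fell in WT spermatids, where 23.6% of all genes rose and 18.8% fell in Tex10-deficient and 22.6% rose and 19.8% fell in WT cells. With the replicate block 14 rose and 11 fell in Tex10-deficient and 12 rose and 10 fell in WT spermatids. Without single libraries of spermatids or MI spermatocytes the total fell to 9 calls in Tex10-deficient cells (without the first spermatid library) and to between 5 and 7 in WT cells (without any 1 of the 4 WT libraries compared). The direction of this last contrast depended on the scaling. The median of the 85 genes was 0.24 in Tex10-deficient and 0.11 in WT cells on FPKM as deposited, but −0.56 and −0.72 after all libraries were given equal FPKM totals, where the median of all genes was −0.54 and −0.56. With equal totals 27 genes fell in Tex10-deficient and 28 in WT spermatids and none rose.

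Equal totals or quantile normalization moved the median of all genes by over 0.1 in several contrasts between cell types, but the other 3 kinds of contrast kept their direction under both. Relative to the median of all genes, the median of the 85 in MI spermatocytes against spermatogonia was −0.78 on deposited FPKM, −0.87 with equal totals and −1.5 after quantile normalization in Tex10-deficient cells. In MII against MI spermatocytes it was 1.39, 1.39 and 1.61 in Tex10-deficient cells, in the same order of scalings.

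**Figure D3:**
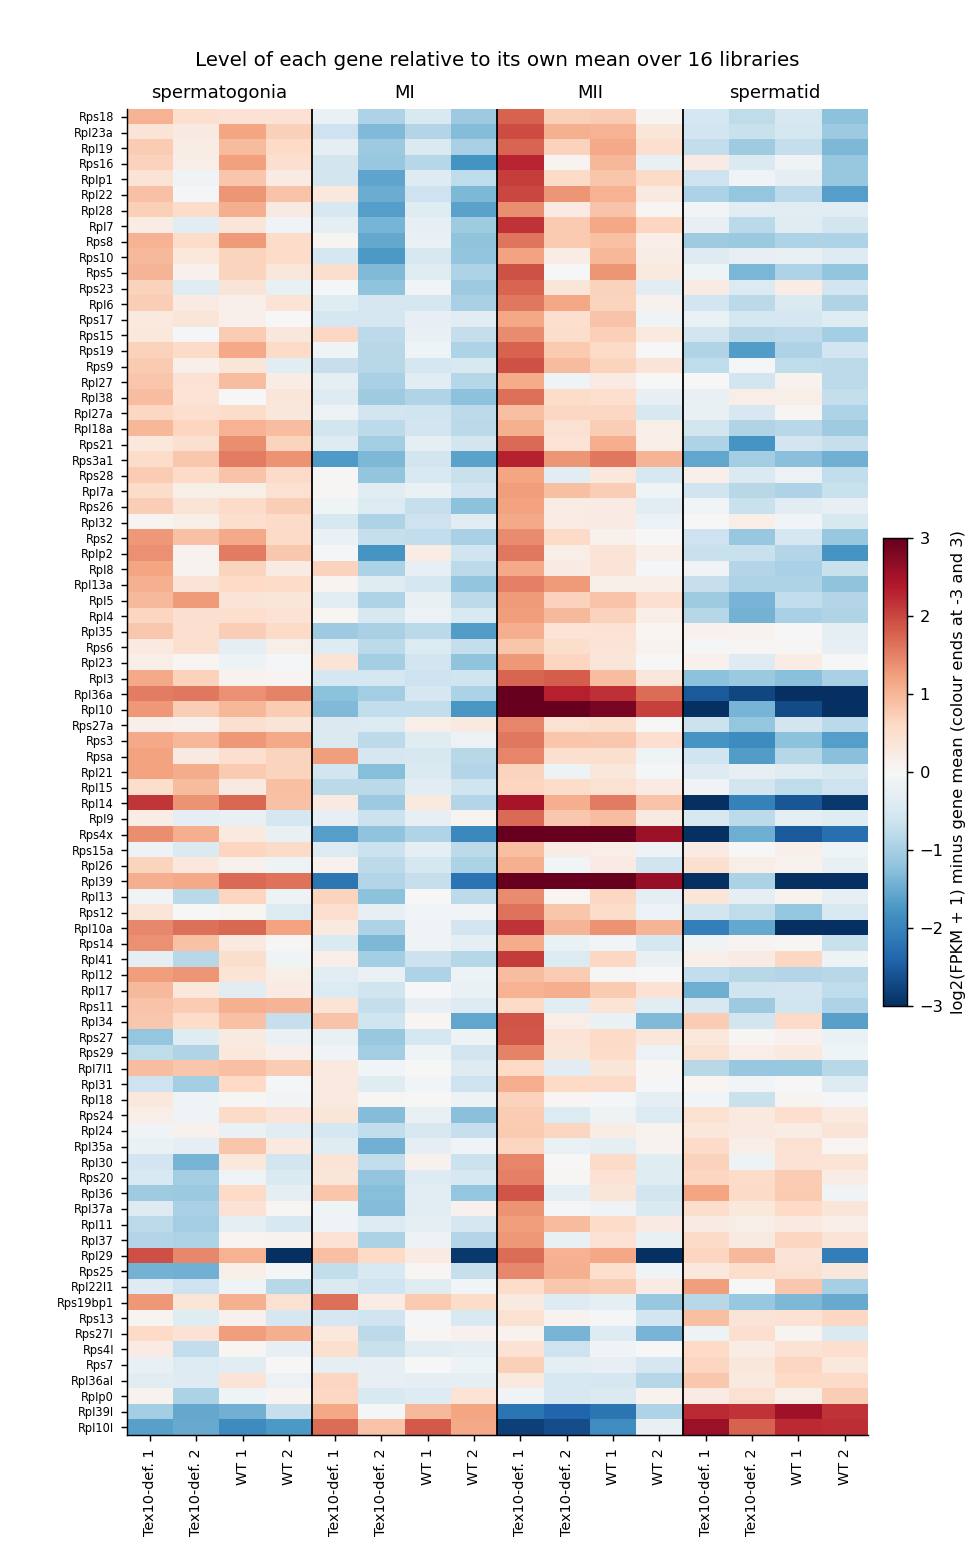
Rows are the 85 genes and columns the 16 libraries, Tex10-deficient (1 and 2) left of WT (1 and 2) in each cell type, coloured by log2(FPKM + 1) minus the mean of the gene, with rows ordered by the correlation of a gene with the median of the others. Most rows are blue in MI spermatocytes and spermatids and red in MII spermatocytes, while Rpl10l and Rpl39l at the bottom run the other way (r = −0.82 and −0.76 over 16 libraries).

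By the mean of each group, 61 of 85 genes were highest in MII spermatocytes and 13 in spermatogonia in Tex10-deficient cells, whereas in WT cells 41 were highest in spermatogonia and 28 in MII spermatocytes. In Tex10-deficient cells 37 were lowest in spermatids and 29 in MI spermatocytes, and in WT cells 36 were lowest in each. The 43 autosomal large-subunit and 30 small-subunit genes had medians of −0.87 and −0.90 in MI spermatocytes against spermatogonia in Tex10-deficient cells and −0.88 and −1.15 in WT cells. Against MI spermatocytes, 32 of 43 and 23 of 30 rose in Tex10-deficient and 21 of 43 and 10 of 30 in WT cells in MII spermatocytes. These are 74.4% and 76.7% in Tex10-deficient cells, where 31.6% of all genes rose. In WT cells they are 48.8% and 33.3%, where 30% of all genes rose, so the small-subunit count lies near that share. The difference between the subunits was not tested. The correlation of a gene with the median of the other members over the 16 libraries, which are grouped by cell type, was 0.95 for Rps18 and Rpl23a and below 0 for Rpl10l, Rpl39l, Rplp0 and Rpl36al.

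The stalk genes did not move alike. Rplp0, the scaffold of the stalk, had 30.6 and 14.1 FPKM in Tex10-deficient and 25.9 and 29.9 FPKM in WT spermatogonia, and 43.8 and 20.4 FPKM in Tex10-deficient and 21.6 and 38.1 FPKM in WT MI spermatocytes. It had 26.2 and 20.1 FPKM in Tex10-deficient and 20.5 and 30.8 FPKM in WT MII spermatocytes, and 33.7 and 39.1 FPKM in Tex10-deficient and 32.1 and 48.1 FPKM in WT spermatids. It passed no test between cell types. Its acidic partner Rplp1 rose in MII against MI spermatocytes in both genotypes (2.37 with adjusted p = 0.00069 in Tex10-deficient and 1.28 with adjusted p = 0.035 in WT cells) and fell in spermatids against MII spermatocytes (−1.67 in Tex10-deficient and −1.41 in WT cells, adjusted p = 0.0061 and 0.017). Rplp2 followed in Tex10-deficient cells (1.79 in MII against MI spermatocytes, adjusted p = 0.018) but did not pass in WT cells (0.47, adjusted p = 0.53), and the difference between the genotypes did not pass either (F test, adjusted p = 0.99). Rpsa, the small-subunit protein once described as a laminin receptor, had 83.9 and 24.3 FPKM in Tex10-deficient and 24.6 and 19.0 FPKM in WT MI spermatocytes. Only the first Tex10-deficient MI library was high, and the fall of Rpsa in Tex10-deficient spermatids against MI spermatocytes (−1.52, adjusted p = 0.035) became −0.65 with adjusted p = 0.37 without it, and −0.98 with adjusted p = 0.24 without the second spermatid library.

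Among the 73 autosomal standard genes, paralogs aside, Rpl14, Rpl10a, Rps3a1 and Rps16 had some of the larger falls outside the MII contrasts. Rpl14, a large-subunit protein, had 98.9 and 56.7 FPKM in Tex10-deficient and 73.7 and 40.7 FPKM in WT spermatogonia, 126 and 46.9 FPKM in Tex10-deficient and 65.3 and 40.3 FPKM in WT MII spermatocytes, but 1.53 and 4.51 FPKM in Tex10-deficient and 2.8 and 2.07 FPKM in WT spermatids. In MI spermatocytes it had 26.4 and 9.61 FPKM in Tex10-deficient and 26.7 and 11.2 FPKM in WT cells. Against these it fell in spermatids of both genotypes (−2.19 in Tex10-deficient and −2.43 in WT cells on the log2 scale, limma adjusted p = 0.0088 and 0.0047), calls that were lost without the first Tex10-deficient MI library (−1.51, adjusted p = 0.10), the first Tex10-deficient spermatid library (−1.63, adjusted p = 0.093) or the first WT MI library (−1.84, adjusted p = 0.066). Rpl10a fell further in WT spermatids (−2.97, adjusted p = 0.0001, with 0.919 and 0.312 FPKM in spermatids against 13.6 and 9.55 FPKM in MI spermatocytes). In Tex10-deficient cells its estimate was −1.46 (adjusted p = 0.016).

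Rps3a1, at the mRNA exit side of the small subunit, had 48.3 and 61.1 FPKM in Tex10-deficient and 107 and 51.1 FPKM in WT MI spermatocytes, against 232 and 279.8 FPKM in Tex10-deficient and 464 and 403 FPKM in WT spermatogonia. It fell in both (−2.21 in Tex10-deficient and −2.53 in WT cells, adjusted p = 0.00049 and 0.00015). Rps16 fell in WT MI spermatocytes (log2 difference −2.2, adjusted p = 0.01), with 17.8 and 8.83 FPKM in MI spermatocytes against 79.6 and 47.7 FPKM in spermatogonia. That call was lost without the first WT library of spermatogonia (−1.84, adjusted p = 0.080) or the second WT MI library (−1.73, adjusted p = 0.10), and in Tex10-deficient cells the estimate was −1.3 (adjusted p = 0.1).

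Outside the MII contrasts few autosomal members rose. In Tex10-deficient MI spermatocytes against spermatogonia Rps25 rose by 0.83 (adjusted p = 0.045), with 204 and 246 FPKM in MI spermatocytes against 126 and 124 FPKM in spermatogonia. The estimate was −0.20 (adjusted p = 0.63) after quantile normalization and 0.33 (adjusted p = 0.42) with equal totals, and leaving out any 1 library of Tex10-deficient or WT spermatogonia, Tex10-deficient MI spermatocytes or spermatids of either genotype also ended the call, at adjusted p of 0.054 to 0.17. In spermatids against MI spermatocytes Rpl35a (1.28, adjusted p = 0.014) and Rps13 (1.19, adjusted p = 0.0077) rose in Tex10-deficient cells, as did Rps25 (1.0, adjusted p = 0.023). Rpl35 rose in both genotypes (1.16 with adjusted p = 0.011 in Tex10-deficient and 1.11 with adjusted p = 0.014 in WT cells), and so did Rpl24 (0.95 with adjusted p = 0.0048 in Tex10-deficient and 0.88 with adjusted p = 0.0078 in WT cells). With Rpl39l, given with its X-linked partner, these are all of the rises called in this contrast, 6 in Tex10-deficient and 3 in WT cells, and the 3 of WT cells are among the 6. With equal totals the estimates were 0.45 for Rpl35a and 0.36 for Rps13 in Tex10-deficient cells and 0.27 for Rpl35 and 0.04 for Rpl24 in WT cells, and none passed. Leaving out 1 library ended the call of Rpl35a (adjusted p = 0.18 without the second Tex10-deficient MI library and 0.093 without the first Tex10-deficient spermatid library) and of Rps13 (0.076 without the first Tex10-deficient spermatid library). It also ended the WT calls of Rpl35 (0.17 without the second WT MI library and 0.092 without the first WT spermatid library) and Rpl24 (0.066 without the second WT MI library and 0.065 without the second WT spermatid library). Rps19bp1 fell in spermatids against MI spermatocytes in both genotypes (−1.91 and −2.1, adjusted p = 0.0055 and 0.0029 in Tex10-deficient and WT cells), the first of these without passing (−1.2, adjusted p = 0.080) when the first Tex10-deficient MI library was left out. Its fall in WT MII against MI spermatocytes (−1.38, adjusted p = 0.023) was lost without either WT MI library or the second WT MII library (adjusted p of 0.10, 0.062 and 0.17).

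The X-linked genes and their germ cell copies moved in opposite directions. Rpl10 encodes a protein that joins the large subunit late and completes it, and Rpl10l, its copy on chromosome 12, has a single uninterrupted coding exon. Rpl39 encodes a very small protein that lines the exit tunnel, and Rpl39l is its copy on chromosome 16. The coding sequences of both pairs are shown because reads of one gene can be told from reads of the other only where they differ. They are from GENCODE M21 on GRCm38 and run 5′ to 3′, with capitals at the bases that differ within the pair.
Rpl10, X:74271002-74273067 (+), coding bases 1 to 150: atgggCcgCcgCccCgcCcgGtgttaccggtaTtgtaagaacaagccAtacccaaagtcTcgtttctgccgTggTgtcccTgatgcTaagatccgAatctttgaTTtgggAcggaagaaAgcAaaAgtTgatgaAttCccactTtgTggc
Rpl10l, 12:66283713-66284357 (−), coding bases 1 to 150: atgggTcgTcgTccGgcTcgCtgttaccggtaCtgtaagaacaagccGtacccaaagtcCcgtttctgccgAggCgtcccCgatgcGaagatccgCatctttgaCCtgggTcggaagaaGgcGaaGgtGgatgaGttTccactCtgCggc
Rpl39, X:37082701-37085127 (−), coding bases 1 to 156: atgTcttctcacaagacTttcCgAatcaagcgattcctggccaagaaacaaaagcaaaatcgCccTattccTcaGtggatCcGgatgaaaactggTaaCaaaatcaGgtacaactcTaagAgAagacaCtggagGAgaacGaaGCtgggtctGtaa
Rpl39l, 16:10174310-10174465 (+), coding bases 1 to 156: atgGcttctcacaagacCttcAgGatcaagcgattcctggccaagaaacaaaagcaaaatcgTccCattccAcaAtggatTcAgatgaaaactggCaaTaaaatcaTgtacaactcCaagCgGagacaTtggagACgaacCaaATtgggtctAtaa
Over the whole coding sequence 547 of 645 bases are the same in Rpl10l and Rpl10 (84.8%, longest identical run 23 bases) and 133 of 156 in Rpl39l and Rpl39 (85.3%, longest run 38 bases). Rpl36al and Rpl36a share 282 of 321 bases (87.9%, longest run 24 bases). Ribosomal protein genes also have many processed pseudogenes, and how the authors assigned reads that fit several places is unknown here, so the level of any single gene is uncertain to that extent.

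Rpl10 had 99.9 and 67.4 FPKM in Tex10-deficient and 80.1 and 68.5 FPKM in WT spermatogonia, and 15.3 and 23.6 FPKM in Tex10-deficient and 23.6 and 11.1 FPKM in WT MI spermatocytes. It had 489.9 and 344 FPKM in Tex10-deficient and 291 and 169 FPKM in WT MII spermatocytes, and 2.77 and 14.6 FPKM in Tex10-deficient and 5.32 and 3.04 FPKM in WT spermatids. All 4 MII libraries stood above every other library. Rpl10l had 9.65 and 10.6 FPKM in Tex10-deficient and 7.94 and 8.97 FPKM in WT spermatogonia, and 104 and 58.9 FPKM in Tex10-deficient and 118 and 72.1 FPKM in WT MI spermatocytes. It had 3.73 and 4.25 FPKM in Tex10-deficient and 8.17 and 27.5 FPKM in WT MII spermatocytes, and 198 and 112 FPKM in Tex10-deficient and 154 and 152 FPKM in WT spermatids. The copy thus stood above its X-linked partner in every MI and spermatid library and below it in every library of spermatogonia and MII spermatocytes. Rpl10l made up 71.4% to 87.2% of the pair in Tex10-deficient and 83.3% to 86.6% in WT MI spermatocytes, and 88.5% to 98.6% in Tex10-deficient and 96.7% to 98.0% in WT spermatids. In spermatogonia it made up 8.81% to 13.6% in Tex10-deficient and 9.02% to 11.6% in WT libraries. Rpl10l rose in MI spermatocytes against spermatogonia by 2.84 in Tex10-deficient and 3.3 in WT cells (limma adjusted p = 0.00023 and 5.9e-05), while Rpl10 fell (−2.05 and −2.12, adjusted p = 0.0073 and 0.0056). In spermatids against MII spermatocytes Rpl10l rose again (4.91 in Tex10-deficient and 3.25 in WT cells, adjusted p = 6.8e-07 and 2.6e-05), after a fall in MII against MI spermatocytes (−4.0 in Tex10-deficient and −2.52 in WT cells, adjusted p = 8.4e-06 and 0.00042). Rpl10 fell there (−5.75 in Tex10-deficient and −5.46 in WT cells, adjusted p = 8.4e-07 and 2.3e-06).

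Rpl39 had 80.4 and 83.2 FPKM in Tex10-deficient and 124 and 118 FPKM in WT spermatogonia, and 7.52 and 19.9 FPKM in Tex10-deficient and 23.0 and 7.26 FPKM in WT MI spermatocytes. It had 617 and 409 FPKM in Tex10-deficient and 336 and 233 FPKM in WT MII spermatocytes, and 1.04 and 19.0 FPKM in Tex10-deficient and 1.63 and 2.02 FPKM in WT spermatids. It too was highest in the 4 MII libraries, and the second Tex10-deficient spermatid library stood far above the other spermatid libraries. Rpl39l had 3.63 and 2.24 FPKM in Tex10-deficient and 2.42 and 4.77 FPKM in WT spermatogonia, and 20.1 and 7.96 FPKM in Tex10-deficient and 17.4 and 20.1 FPKM in WT MI spermatocytes. It had 1.06 and 0.784 FPKM in Tex10-deficient and 1.04 and 3.92 FPKM in WT MII spermatocytes, and 43.4 and 40.7 FPKM in Tex10-deficient and 53.1 and 41.3 FPKM in WT spermatids. In MI spermatocytes 1 library of each genotype had more Rpl39l and 1 more Rpl39, and in spermatids Rpl39l was the higher in all 4 libraries. Rpl39l rose in MI spermatocytes against spermatogonia (1.83 in Tex10-deficient and 2.15 in WT cells, adjusted p = 0.0044 and 0.0014) and again in spermatids against MI spermatocytes (1.65 and 1.28, adjusted p = 0.0098 and 0.036). In MII against MI spermatocytes Rpl39l fell (−2.84 in Tex10-deficient and −2.64 in WT cells, adjusted p = 9.8e-05 and 0.00028). The rise in spermatids was 0.83 in Tex10-deficient and 0.45 in WT cells with equal totals (adjusted p = 0.16 and 0.46). It was lost in Tex10-deficient cells without the second MI library (adjusted p = 0.13) and in WT cells without any 1 of the 4 libraries compared (adjusted p of 0.076 to 0.17). The rise in MI spermatocytes was lost in Tex10-deficient cells without the first MI library (1.21, adjusted p = 0.071). Rpl39 fell in MI spermatocytes against spermatogonia (−2.63 in Tex10-deficient and −3.12 in WT cells, adjusted p = 0.012 and 0.0043). These falls did not pass without the first or second library of Tex10-deficient spermatogonia (adjusted p = 0.053 and 0.055), the first Tex10-deficient MI library (−1.99, adjusted p = 0.12) or the second WT MI library (−2.35, adjusted p = 0.064).

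**Figure D4:**
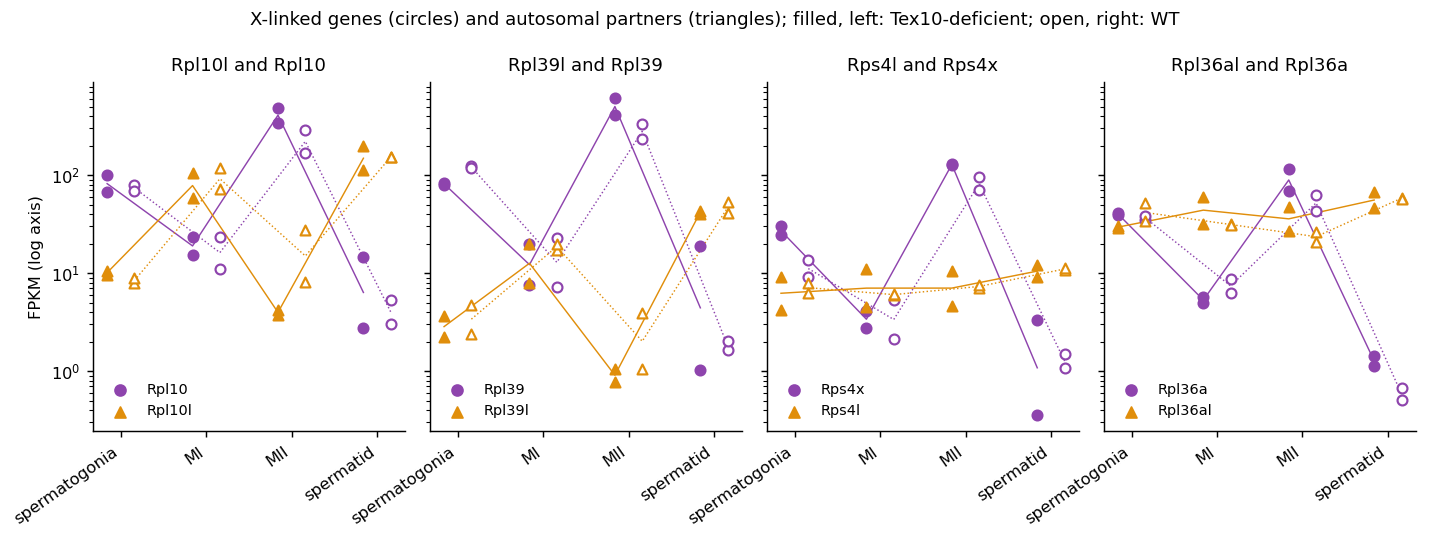
Levels in FPKM (log axis) of 4 X-linked genes (circles) and their autosomal partners (triangles) in each library by cell type, Tex10-deficient filled and left, WT open and right, with lines through the geometric means. Rpl10l and Rpl39l peak in spermatids (112 to 198 FPKM and 40.7 to 53.1 FPKM), where Rpl10 and Rpl39 are at 1.04 to 19.0 FPKM, and all 4 X-linked genes peak in MII libraries.

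Rps4x and Rpl36a changed in the same directions as the other X-linked genes, while their autosomal relatives stayed within narrower ranges. Rps4x, a small-subunit protein that binds rRNA early, had 30.1 and 24.3 FPKM in Tex10-deficient and 13.6 and 9.14 FPKM in WT spermatogonia, and 2.78 and 4.14 FPKM in Tex10-deficient and 5.39 and 2.11 FPKM in WT MI spermatocytes. It had 129.7 and 128 FPKM in Tex10-deficient and 95.0 and 70.6 FPKM in WT MII spermatocytes, and 0.353 and 3.32 FPKM in Tex10-deficient and 1.08 and 1.49 FPKM in WT spermatids. In spermatogonia both Tex10-deficient libraries had more Rps4x than both WT libraries, without passing (1.21, SE 0.47, adjusted p = 0.65). Rpl36a, which touches the transfer RNA as it leaves, had 39.7 and 40.9 FPKM in Tex10-deficient and 35.2 and 38.4 FPKM in WT spermatogonia, and 4.91 and 5.78 FPKM in Tex10-deficient and 8.78 and 6.26 FPKM in WT MI spermatocytes. It had 115 and 69.8 FPKM in Tex10-deficient and 62.8 and 43.4 FPKM in WT MII spermatocytes, and 1.44 and 1.12 FPKM in Tex10-deficient and 0.507 and 0.676 FPKM in WT spermatids. In spermatids both Tex10-deficient libraries had more Rpl36a than both WT libraries, at about 1 FPKM, and the difference did not pass (0.52, adjusted p = 1). Rps4l, for which GENCODE M21 gives no protein-coding transcript, stayed between 4.24 and 12 FPKM and Rpl36al between 20.9 and 67.5 FPKM in all libraries. Neither passed a test between cell types in Tex10-deficient cells, and in WT cells Rpl36al passed only in spermatids against MII spermatocytes (1.27, adjusted p = 0.0047; 0.27 and adjusted p = 0.50 with equal totals). All 4 X-linked genes fell in MI spermatocytes against spermatogonia, rose in MII against MI spermatocytes and fell in spermatids against MII spermatocytes in both genotypes. Their medians in these 3 contrasts were −2.65, 4.62 and −5.75 in Tex10-deficient and −2.14, 3.95 and −5.32 in WT cells, where the 73 autosomal genes had −0.87, 1.36 and −1.12 in Tex10-deficient and −0.94, 0.77 and −0.80 in WT cells. The difference between X-linked and autosomal genes was not itself tested.

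In spermatids 3 of the 4 X-linked transcripts were highest in the library with the largest sums of Leydig, Sertoli and macrophage markers. The second Tex10-deficient spermatid library, with 14.6 FPKM of Rpl10 and 19.0 FPKM of Rpl39 where the other 3 spermatid libraries had 2.77 to 5.32 FPKM and 1.04 to 2.02 FPKM, also held 222 FPKM of Leydig cell markers, 61.7 FPKM of Sertoli cell markers (3 genes measured) and 26.0 FPKM of macrophage markers. It also had the most Rps4x of the 4 libraries, but not of Rpl36a. The other spermatid libraries held 14.9 to 75.9 FPKM of the Leydig cell list, 11 to 19.7 FPKM of the Sertoli cell list and 5.66 to 10.3 FPKM of the macrophage list. Of the macrophage markers C1qa was listed at 0 in both Tex10-deficient and C1qc and Cd68 in both WT spermatid libraries. In MI spermatocytes the second Tex10-deficient library, with 70.0 FPKM of Leydig cell markers, had 23.6 FPKM of Rpl10, but the first WT library had as much (23.6 FPKM) with 30.1 FPKM of those markers. The part of such RNA in the levels of the X-linked genes, in MII libraries above all, was not tested.

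Of the other paralogs, Rpl22l1 and Rps27l passed no test between cell types and Rpl7l1 did. Rpl22l1 had 20.6 and 8.24 FPKM in Tex10-deficient and 14.9 and 3.57 FPKM in WT spermatids, so libraries of 1 group differed more than the genotypes. Rps27l, a p53 target gene in human cells, had 17.1 and 15.1 FPKM in Tex10-deficient and 27.2 and 24.5 FPKM in WT spermatogonia, higher in both WT libraries without passing (adjusted p = 0.95). Rpl7l1, which acts in ribosome assembly, lay between 1.48 and 9.53 FPKM and was lower in spermatids than in MII spermatocytes in both genotypes (−1.13 in Tex10-deficient and −1.18 in WT cells, adjusted p = 0.0078 and 0.006).

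Genes that belong with the ribosome but fall outside the symbol rule were counted beside the 85. Gnb2l1, the older symbol of Rack1, encodes a scaffold on the small subunit. It had 63.9 and 41.7 FPKM in Tex10-deficient and 78.0 and 62.2 FPKM in WT spermatogonia, and 33.2 and 22.2 FPKM in Tex10-deficient and 27.4 and 21.1 FPKM in WT MI spermatocytes. It had 129 and 98.2 FPKM in Tex10-deficient and 79.3 and 59.1 FPKM in WT MII spermatocytes, and 9.46 and 13.1 FPKM in Tex10-deficient and 6.75 and 6.93 FPKM in WT spermatids, low in MI and spermatid libraries like most of the 85. Among 16 translation genes of the same mRNA class, such as elongation factors, 0 were called between genotypes in any cell type (1 at an unadjusted p under 0.05 in MI spermatocytes and 0 in the other 3). In MII against MI spermatocytes 8 of 16 rose and 1 fell in Tex10-deficient cells (31.6% and 30.1% of all genes) and 6 rose and 2 fell in WT cells (30% and 27.2% of all genes). In spermatids against MI spermatocytes 7 rose and 1 fell in Tex10-deficient (23.6% and 18.8% of all genes) and 6 rose and 1 fell in WT cells (22.6% and 19.8% of all genes), with medians of 0.70 and 0.76 where the 85 had 0.24 and 0.11. These values are on FPKM as deposited. With equal totals the median of all genes in this contrast was −0.54 in Tex10-deficient and −0.56 in WT cells, and the 16 are not given under that scaling. Of 75 mitochondrial ribosomal protein genes 0 were called between genotypes in any cell type. At an unadjusted p under 0.05 there were 12 in spermatogonia (16% against 6.6% of all genes), 2 in MI spermatocytes (2.67% against 5.84%), 6 in MII spermatocytes (8% against 13.3%) and 1 in spermatids (1.33% against 2.17%). In MII against MI spermatocytes 11 rose and 20 fell in Tex10-deficient and 3 rose and 15 fell in WT cells (medians −0.24 and −0.17), where the medians of the 85 were 1.36 and 0.76. Over all genes 31.6% rose and 30.1% fell there in Tex10-deficient cells and 30% rose and 27.2% fell in WT cells, against 14.7% and 26.7% of the 75 in Tex10-deficient and 4% and 20% in WT cells.

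Of 6 chaperones dedicated to single ribosomal proteins, none was called between genotypes (1 at an unadjusted p under 0.05 in spermatogonia and 0 in the other 3 cell types). Tsr2, which in yeast delivers the Rps26 protein, had 2.95 and 4.29 FPKM in Tex10-deficient and 3.68 and 2.03 FPKM in WT spermatogonia, and 0.90 and 0.471 FPKM in Tex10-deficient and 0.633 and 0.203 FPKM in WT MI spermatocytes. It had 4.62 and 4.7 FPKM in Tex10-deficient and 3.36 and 2.09 FPKM in WT MII spermatocytes, and 0 and 0.425 FPKM in Tex10-deficient and 0.171 and 0.0546 FPKM in WT spermatids. It fell in MI spermatocytes against spermatogonia (−1.45 in Tex10-deficient and −1.43 in WT cells, limma adjusted p = 0.0025 and 0.0026), as the X-linked members did. The 5 genes outside the 85 whose log2(FPKM + 1) correlated best with the median of the 85 over 16 libraries were Selm (r = 0.92), Cfl1 (0.92), Polg2 (0.91), Rin3 (0.91) and Zbtb45 (0.91). Of these Cfl1, which encodes the actin-severing protein cofilin, had mean levels of 220.4 FPKM in Tex10-deficient and 238 FPKM in WT spermatogonia and of 126 FPKM in Tex10-deficient and 123 FPKM in WT spermatids. The libraries share cell types and mRNA preparation, so these values only describe them.

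The libraries numbered 1 held more ribosomal protein transcripts than those numbered 2 in all 8 groups. In each group 64 to 81 of the 85 genes were higher in library 1, with medians of 0.23 to 0.89 on the log2 scale, while only 31.3% to 51.9% of all genes were higher there and their medians ran from −0.25 to 0.02. In MII spermatocytes 81 of 85 genes (median 0.89) were higher in library 1 of Tex10-deficient and 79 of 85 (median 0.53) in library 1 of WT cells. The correlation of the offset with transcript length was −0.23 to 0.18 over 84 genes with an annotated length, across genes. Rmrp, the RNA of RNase MRP, was higher in library 1 in 7 of the 8 groups, for instance with 1734 and 202 FPKM in Tex10-deficient and 1406 and 127 FPKM in WT MI spermatocytes. Mitochondrial ribosomal protein genes had smaller medians (−0.01 to 0.57). Beside the offsets of 0.89 and 0.53 in MII spermatocytes stands a median genotype difference of 0.62 there, and the part of one in the other was not tested. The labels give no batch or date for the libraries.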

How the data were processed

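The deposited table holds FPKM plus 1 per gene and library, and the 1 was subtracted. STAR 2.7.6a, Cufflinks 2.2.1 and the mm10 build are named in the submitters' processing notes. One gene with a letter in a cell was left out. Genes had to reach 1 FPKM in 2 or more libraries, which 13099 did, and their log2(FPKM + 1) values were fitted with limma 3.58.1 in R 4.3.3 (all 8 groups, variance trend), and p-values were Benjamini-Hochberg adjusted over all of them. The fit was tested on simulated data. FPKM holds no read number, so no counting interval is given. Groups follow titles, which conflict with the cell type field, and grouping by the field was an alternative. Over all genes, deviations of same-numbered libraries from their group means correlated at r = 0.14 to 0.36 in all 6 pairs of WT cell types. They correlated at −0.08 to 0.42 in Tex10-deficient cells and −0.13 to 0.31 between genotypes of 1 cell type. The mark taken for pairs was 0.1, which every WT pair passed but not every Tex10-deficient pair. Groups that differ in both genotype and cell type gave r of −0.22 to 0.22, so some of them passed it too. The mark therefore cannot show that same-numbered libraries are pairs, and the block assumes it. Over the 85 genes alone r was 0.38 to 0.73 in WT and 0.05 to 0.55 in Tex10-deficient cells. The block was fitted in both genotypes, so blocked calls also assume pairs in Tex10-deficient cells. Blocked values stand beside results they change. Other alternatives changed the pseudocount, filter, scaling, replicate block and libraries fitted. Genes named were the X-linked members, paralogs, stalk genes and Rpsa, the 5 highest and 5 lowest mean levels, the 3 smallest p of each genotype test where none was called (otherwise up to 10 called), the 3 largest called rises and falls between cell types, and up to 4 genes of each other list by size of estimate. Members called only under an alternative, and Rpl29, were named after their values were seen. The members and lists were chosen with earlier results of these data known.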

Additional observations from a re-analysis of the deposited data

How the results depend on the processing

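With each library left out in turn, the number of called ribosomal protein genes between genotypes was 0 in spermatogonia, MI spermatocytes and spermatids, 0 to 6 in MII spermatocytes, 0 to 3 for the average and 0 to 2 in the F test. Between cell types it ran in Tex10-deficient cells from 17 to 46 for MI against spermatogonia, 40 to 70 for MII against MI, 38 to 64 for spermatids against MII and 9 to 17 for spermatids against MI. In WT cells it ran from 15 to 44, 13 to 41, 25 to 46 and 5 to 14 in these 4 contrasts. With equal FPKM totals the calls were 61 for WT MI against spermatogonia, 64 for WT spermatids against MII, and 27 in Tex10-deficient and 28 in WT spermatids against MI. Quantile normalization gave 71 for WT MI against spermatogonia and 18 for WT spermatids against MI. Fitting only the libraries compared gave 9 in Tex10-deficient and 23 in WT spermatids against MI and 24 for WT MII against MI, and leaving the MII libraries out gave 17 in WT spermatids against MI. With the replicate number as a block within genotype, 4 genes were called in MII spermatocytes (Rpl3, Rpl13a, Rpl29 and Rpl34) and 2 for the average (Rpl29 and Rpl34), and 25 in Tex10-deficient and 22 in WT spermatids against MI. The block brought no other count of calls outside 1.5 times its value without it.

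Grouping by the cell type field gave, between genotypes, 20 calls in MI and 16 in MII spermatocytes and 23 in the F test. Between cell types it gave in Tex10-deficient cells 0 for MI against spermatogonia, 20 for MII against MI, 0 for spermatids against MII and 29 for spermatids against MI, and in WT cells 18, 15 and 0 for MI against spermatogonia, MII against MI and spermatids against MI. It turned the sign of 17 estimates of named genes. Between genotypes these were Rpl10l 3.16, Rpl13a −0.50 and Rpl3 −1.52 in MII and Rps27a 0.061 in MI spermatocytes. In Tex10-deficient MI against spermatogonia they were Rpl39l −0.36 and Rps25 −0.21. In MII against MI they were Rpl10 −4.29, Rpl39 −5.48, Rps4x −4.66, Rpl10l 4.21 and Rpl39l 3.67. In spermatids against MII they were Rpl10 1.32, Rpl39 2.29, Rps4x 1.06, Rpl10l −0.81 and Rpl39l −0.66, and against MI Rpl35a −0.38. Quantile normalization turned Rps25 in Tex10-deficient MI against spermatogonia (−0.20). The cause of the other changes was not tested. Of 1616 values of named genes and of group shares under alternatives, 1513 were unaltered in direction and call, 73 lost the call, 8 gained it and 18 turned. The other 4 are shares of the FPKM total without the 100 highest other genes (4.67% in Tex10-deficient and 5.09% in WT spermatogonia, 1.51% in Tex10-deficient and 1.37% in WT spermatids). Part of the 1513 could not have changed, so they do not measure robustness. Leaving out a library outside a contrast cannot move its estimate, only its p-value. Leaving out 1 of the 2 libraries of a group cannot move its share by the SD that counted as a change. Read numbers are unknown, so the counting error of low levels cannot be given.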

Other observations

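Rpl29, a large-subunit gene at 9:106429454-106431568 (+) on GRCm38, split the libraries in a way that no other gene did, a pattern chosen after its values were seen. The WT libraries numbered 2 had 0.8 FPKM in spermatogonia, 1.5 in MI spermatocytes, 0.4 in MII spermatocytes and 3.4 in spermatids, where the other 12 libraries had 20.6 to 68.8 FPKM. Of 13099 genes Rpl29 was the only one whose highest value in these 4 libraries was more than 3-fold below its lowest in the other 12, and 0 genes were so in the WT libraries numbered 1 or in either set of Tex10-deficient libraries. Rpl29 also has the highest estimate of the 85 genes between genotypes in each cell type (2.84 in spermatogonia, 2.08 in MI spermatocytes, 2.64 in MII spermatocytes and 1.65 in spermatids). None was called in the limma fit without a replicate block. With the block Rpl29 was called in MII spermatocytes (adjusted p = 0.036) and for the average over cell types (adjusted p = 0.0014). All of these estimates include the low WT libraries numbered 2. The WT libraries numbered 1 had 36.6 FPKM in spermatogonia, 20.6 in MI spermatocytes, 39.7 in MII spermatocytes and 22.8 in spermatids.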
